A study of Mus musculus with 198 samples.

Results

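Irf7, Bst2, Ifit1, Ifit3, Isg15, Usp18, Rsad2, Oasl2 and Ifi44 are 9 interferon response genes, and they were read by gene name from a count table of 56332 genes in 9 tissues of the mouse. Bulk RNA-seq had been carried out on C57BL/6 mice that received an antibody against PAPP-A (the anti-PAPP-A group, 10 mice, 5 of each sex) or a control treatment (the control group, 12 mice, 6 of each sex) for 17 weeks. PAPP-A is a secreted protease that cleaves binding proteins of insulin-like growth factors, and the sources used here do not state the age of the animals or what antibody, if any, the control mice received. Each mouse gave bone marrow, spleen, both gonadal and subscapular fat, skin, heart, kidney, lung and liver, taken whole, so that each tissue has 22 libraries. The questions were how these genes differ between the tissues, between the arms and between the sexes, and whether they deviate together over the tissues of the same mouse.

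Interferons are cytokines released when a cell senses viral nucleic acid, and they act on neighbouring cells through surface receptors and JAK kinases. Type I interferon signalling assembles a complex of transcription factors that includes IRF9 and binds the interferon-stimulated response element in promoters and raises the transcription of many antiviral genes, whereas interferon gamma acts mainly through the gamma-activated site. In animals without an infection these genes keep a low basal level, and plasmacytoid dendritic cells and macrophages are known as strong producers or responders.

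The promoter letters that the complex is known to bind are shown because several of these genes share them. RefSeq promoters on GRCm38.p6, from 250 bases before to 50 bases after the start site, were at hand for 8 of the 9 genes (not for Usp18). The response element was searched as GAAANNGAAA on both strands, which reads TTTCNNTTTC on the other strand, and the gamma-activated site as TTCNNNGAA, which reads the same on both. GAAANNGAAA was found in 5 of the 8 promoters, in 36 of 91 promoters of other interferon pathway genes and in 1131 of all 32851 promoters (3.44%). The stretches that hold it are given 5′ to 3′ on the strand of the gene with 15 flanking bases, and the capitals mark the matches.
Isg15, chr4:156200860-156200911, minus strand: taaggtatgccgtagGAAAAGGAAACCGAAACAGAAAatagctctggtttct
Bst2, chr8:71537572-71537617, minus strand: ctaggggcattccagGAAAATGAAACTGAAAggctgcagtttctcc
Rsad2, chr12:26456548-26456587, minus strand: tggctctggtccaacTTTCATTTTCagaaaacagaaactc
Ifit3, chr19:34583358-34583431, plus strand: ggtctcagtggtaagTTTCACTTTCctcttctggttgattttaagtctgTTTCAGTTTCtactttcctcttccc
Ifit1, chr19:34640770-34640828, plus strand: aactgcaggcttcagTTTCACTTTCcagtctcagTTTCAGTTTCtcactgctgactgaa
Isg15 held 3 overlapping matches and Bst2 held 2 overlapping matches, Ifit3 and Ifit1 held 2 separate matches each, and Rsad2 held 1. They lay between 156 bases (Ifit3) and 57 bases (Isg15) before the start site. TTCNNNGAA was found in 1 of the 8, in Bst2, where it overlaps the first GAAANNGAAA match, and in 2726 of all promoters (8.30%). The windows of Irf7, Oasl2 and Ifi44 held neither set of letters.

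On mm10 (GENCODE M21) Irf7 lies at chr7:141262706-141266481 on the minus strand, Bst2 at chr8:71534255-71537456 on the minus strand, and Isg15 at chr4:156199424-156200818 on the minus strand. Ifit3 (chr19:34583531-34588731) and Ifit1 (chr19:34640871-34650009) share a cluster on the plus strand. Usp18 lies at chr6:121245906-121270917 on the plus strand, Rsad2 at chr12:26442746-26456452 on the minus strand, Oasl2 at chr5:114896936-114912234 on the plus strand and Ifi44 at chr3:151730922-151749960 on the minus strand. All are protein-coding, and the counts are sums over a gene. Exons of Irf7 share 45 bases with Phrf1 and exons of Usp18 share 124 bases with Gm44148, each on the opposite strand, and Ifit3 has a near-identical copy, Ifit3b. No source used here says whether the counting used the strand, so counts of Irf7 and Usp18 are uncertain to that extent, and those of Ifit3 are uncertain because reads could be split between the copies.

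Total counts per library ran from 4138419 to 19517950, but 9 ribosomal and related features took 87.4% of them at the median, and the usable count left for all other genes ran from 33377 to 4694597 with a median of 1099966.5. Levels are given as CPM, which scales a gene's count by the usable count after TMM scaling (a correction for a few highly expressed genes), and a level of 10 CPM stood for about 10 counts in a typical library. Low markers of their own tissue (more than 2 log2 units under its median) or fewer than 1000 genes with 10 counts set 6 libraries apart. These were gonadal fat of anti-PAPP-A male 58, heart of anti-PAPP-A male 56, skin of anti-PAPP-A female 36, heart of control female 22, lung of control male 68 and subscapular fat of control female 20. They are called libraries in doubt, and in the skin library, with 33377 usable counts, all 9 genes were at 0. Low counts set what could be tested, and 51 of 81 pairs of gene and tissue passed edgeR's filter on low counts. Irf7 and Ifit3 passed in 8 tissues, Bst2, Ifit1, Rsad2 and Oasl2 in 7, Usp18 in 5, Ifi44 in 2 and Isg15 in 0, and no gene of the 9 passed in skin.

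Each gene had its own order of tissues, and the same tissue was highest in both arms for all 9 genes. Irf7, the transcription factor that amplifies type I interferon production and is abundant in plasmacytoid dendritic cells, was highest in bone marrow, with a median of 41.6 CPM in anti-PAPP-A mice and 45.8 CPM in control mice. In control mice its medians went down through liver (36.5 CPM), spleen (35.4 CPM), gonadal fat (24.7 CPM), subscapular fat (16.7 CPM), heart (14.85 CPM), kidney (12.4 CPM) and lung (10.9 CPM) to skin (9.73 CPM). Of the steps between neighbours in this order, 0 of 8 had p under 0.05. The test was an exact two-sided sign-flip permutation test of the mean paired difference over the 12 control mice. That test cannot go below p = 0.000488. The same 12 mice set the order of the tissues, so the steps tested were not fixed in advance. Bone marrow was also highest without TMM scaling (60.3 CPM), but spleen then came next (47.1 CPM) and heart was lowest (9.88 CPM).

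Isg15, a ubiquitin-like protein that is attached to other proteins, and Usp18, the protease that removes it and also dampens the type I receptor, were highest in different tissues. Isg15 was highest in spleen, with a median of 6.18 CPM in anti-PAPP-A mice and 6.69 CPM in control mice, and in control mice it was lowest outside skin in kidney (1.64 CPM). Usp18 was highest in lung at 19.2 CPM in anti-PAPP-A mice and 20.3 CPM in control mice, and in control mice it went down through spleen (16.3 CPM), liver (16.01 CPM), bone marrow (13.0 CPM), subscapular fat (11.4 CPM), gonadal fat (9.33 CPM) and heart (8.47 CPM) to kidney (6.33 CPM) and skin (1.47 CPM). Of their 16 steps between neighbours, the step between kidney and skin for Usp18 was the only one past p = 0.05 (0.000977, exact sign-flip permutation test, 11 of 12 mice).

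Ifit1 and Ifit3, which bind viral RNA and form complexes with each other, shared lung as their highest tissue, and in control mice bone marrow was lowest outside skin for both. Ifit3 had a median of 35.8 CPM in lungs of anti-PAPP-A mice and 50.2 CPM in lungs of control mice (24.9 to 94.8 CPM), against 6.81 CPM in marrow of control mice (3.64 to 16.7 CPM), and the ranges of these control libraries did not overlap. The ratio of the control medians was 7.37. Lung exceeded gonadal fat, the next tissue, by 0.97 ± 0.71 on the log2 scale (SD, n = 12) in 11 of 12 control mice (exact sign-flip permutation p = 0.000977), and heart exceeded marrow by 0.98 ± 0.81 (11 of 12 mice, exact p = 0.00342). The size of the step between heart and marrow depends on TMM scaling, whose median factor was 0.685 in heart and 1.33 in marrow. Ifit1 reached 17.0 CPM in lungs of anti-PAPP-A mice and 19.2 CPM in lungs of control mice, and its lung and marrow ranges overlapped.

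Rsad2 (viperin), an enzyme that makes a chain-terminating nucleotide, had kidney and heart ahead of the immune organs. Its medians in control mice were 55.7 CPM in kidney (33.1 to 101 CPM), 46.8 CPM in heart, 41.2 CPM in spleen, 27.2 CPM in marrow, 19.7 CPM in gonadal fat, 16.8 CPM in subscapular fat, 14.2 CPM in lung and 12.8 CPM in liver (5.35 to 31.0 CPM). Kidney and liver did not overlap, but kidney and heart differed by less than the spread between mice (log2 difference 0.24 ± 0.73, SD, n = 12, exact p = 0.278). Without TMM scaling spleen came first with 55.4 CPM and kidney next with 51.0 CPM, so the place of kidney rests on the scaling, whose median factor ran from 0.663 in liver to 1.34 in spleen.

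Oasl2, an oligoadenylate synthetase-like protein, was highest in bone marrow, with a median of 64.5 CPM in anti-PAPP-A mice and 61.3 CPM in control mice (41.3 to 96.7 CPM), and lowest outside skin in control kidney at 12.9 CPM (10.5 to 19.9 CPM). These control ranges did not overlap, and marrow exceeded gonadal fat, the next tissue, in 10 of 12 mice (log2 difference 0.59 ± 0.62, exact permutation p = 0.00293). Bst2 (tetherin), a membrane protein that holds budding virions on the cell surface, was highest in liver, with a median of 76.1 CPM in anti-PAPP-A mice (46.3 to 111.6 CPM) and 86.7 CPM in control mice (52.3 to 122.1 CPM). All 12 control mice had more in liver than in gonadal fat, the next tissue, by 1.47 ± 0.52 on the log2 scale (exact permutation p = 0.000488), and the liver median was 13.6 times that of bone marrow (median 6.37 CPM). Liver still came first without TMM scaling (56.4 CPM, with gonadal fat next at 30.8 CPM). The size of the ratio depends on that scaling, whose median factor was 0.663 in liver and 1.33 in bone marrow. Ifi44, an interferon-induced protein of unclear mechanism, was highest in kidney. Its median was 18.8 CPM in kidneys of anti-PAPP-A mice and 21.3 CPM in kidneys of control mice, against 8.20 CPM in hearts of anti-PAPP-A mice and 8.94 CPM in hearts of control mice. All 12 control mice had more in kidney than in heart (log2 difference 1.204 ± 0.564, exact permutation p = 0.000488), and its kidney and marrow ranges did not overlap (12.0 to 29.3 CPM against 0 to 5.58 CPM).

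Between neighbours in these orders, 18 of 72 steps had p under 0.05 (exact sign-flip permutation test), without adjustment over the 72. There were 5 for Bst2, 3 each for Ifit3, Oasl2 and Ifi44, 2 for Ifit1, and 1 each for Usp18 and Rsad2. Without TMM scaling 39 of the same 72 steps had it, and 25 calls changed. The medians of 1 step (Ifit3) to 3 steps (Irf7, Isg15 and Ifi44) per gene then turned round. Such a step can be among the 39, since the test was two-sided. Over all tissues at once, limma's F-test on control libraries called 8 of the 8 genes tested (all but Isg15), beside 99.0% of all genes, so a tissue effect did not set these genes apart. Median levels of anti-PAPP-A and of control mice over the 9 tissues gave a Spearman rho of 0.80 (Isg15) to 0.98 (Ifit3). Per length, as CPM per kilobase of exon in control mice and at the median over the tissues, Bst2 (19.9) and Ifit3 (9.86) stood above Rsad2 (4.54), Irf7 (4.41), Isg15 (4.27), Usp18 (4.09), Ifit1 (3.59) and Oasl2 (3.17), and Ifi44 was lowest (0.760). In control mice skin was lowest for every gene under TMM scaling. Ifi44 was at 0 in 8 of 10 skin libraries of anti-PAPP-A mice and 12 of 12 of control mice, and Rsad2 was at 0 in 3 of 10 and 7 of 12. With skin libraries of few usable counts, a count of 0 does not show absence.

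None of the 51 tested pairs of gene and tissue differed between anti-PAPP-A and control mice at an adjusted p under 0.05 by edgeR's quasi-likelihood test with Benjamini-Hochberg adjustment over all genes of a tissue. DESeq2 also called 0 of them. The background was as empty, with 0.00776% of genes called in bone marrow (1 gene) and 0% in each of the other 8 tissues. Among the members 4 pairs had an unadjusted p under 0.05, all lower in anti-PAPP-A mice (2 in lung, 1 each in spleen and subscapular fat). The share of all genes under 0.05 was 6.88% in lung, 5.32% in spleen and 2.37% in subscapular fat. Of the 51 log2 fold changes 14 were positive and 37 negative, with a median of -0.10, and they ran from -1.10 (Rsad2 in spleen) to 0.32 (Usp18 in gonadal fat).

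In spleen, Rsad2 ran from 8.68 to 51.8 CPM with a median of 19.7 CPM in anti-PAPP-A mice, against 0 to 187.5 CPM with a median of 41.2 CPM in control mice. Every anti-PAPP-A value lay inside the range of the control mice, whose highest and lowest libraries were both female. The log2 fold change was -1.10 ± 0.40 (SE, edgeR, p = 0.0108, adjusted p = 0.850), and leaving out any 1 mouse gave -1.28 to -0.80. The other 6 genes tested in spleen lay between -0.17 and 0.13, and neutrophil markers there had a median log2 fold change of 0.66 with 0 of 6 called. Their part in the difference was not tested.

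In lung all 7 tested genes were lower in anti-PAPP-A mice, with a median log2 fold change of -0.33, against -0.003 over all genes tested there. Ifit3 ran from 23.4 to 48.7 CPM with a median of 35.8 CPM in anti-PAPP-A mice, against 24.9 to 94.8 CPM with a median of 50.2 CPM in control mice, and the 4 highest control lungs were all female. Its log2 fold change was -0.42 ± 0.16 (SE, edgeR, p = 0.0160, adjusted p = 0.712). Rsad2 ran from 1.49 to 16.2 CPM with a median of 10.1 CPM in anti-PAPP-A mice, against 6.40 to 28.3 CPM with a median of 14.2 CPM in control mice, and changed by -0.60 ± 0.29 (SE, edgeR, p = 0.0497, adjusted p = 0.712). Irf7 (-0.33), Ifit1 (-0.33), Oasl2 (-0.21), Bst2 (-0.07) and Usp18 (-0.05) had p above 0.05. In lung of control female 11 all 9 genes were above their group's mean. Without that library 5 of 7 genes were lower, with a median of -0.09, Ifit3 at -0.34 (SE 0.14, edgeR, p = 0.0273), Irf7 at -0.08, Ifit1 at -0.16 and Oasl2 at -0.09, and Bst2 (0.02) and Usp18 (0.12) were above 0. Leaving out instead the lung of control male 68, a library in doubt, all 7 genes were lower. Ifit3 was then at -0.50 (SE 0.14, edgeR, p = 0.00207, adjusted p = 0.854), Ifit1 at -0.39 and Usp18 at -0.12. The usable count of the lungs ran from 424611 to 1725954 in anti-PAPP-A mice and from 1008482 to 2744857 in control mice. Macrophage markers, of which 9 of 11 were tested, had a median log2 fold change of -0.45 with none called, and a mean log2 level of 4.91 to 5.50 in anti-PAPP-A lungs against 4.69 to 7.13 in control lungs. The 7.13 is the lung of control male 68, a library in doubt, without which the control lungs reached 5.90 and the median of the macrophage markers was -0.22. Other lists, with none called, had medians of -2.09 for hepatocyte, -1.28 for adipocyte, -0.55 for B cell, 0.76 for cardiomyocyte, 0.14 for plasmacytoid dendritic cell, 0.04 for neutrophil and 0.03 for endothelial markers. The part of these cell types and of depth was not tested. In bulk tissue, fewer cells of a type and less RNA per cell cannot be told apart.

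In subscapular fat all 6 tested genes were lower in anti-PAPP-A mice, with a median log2 fold change of -0.50, against -0.009 over all genes. Irf7 ran from 3.93 to 22.8 CPM with a median of 11.4 CPM in anti-PAPP-A mice, against 4.96 to 48.0 CPM with a median of 16.7 CPM in control mice. Its log2 fold change was -0.62 ± 0.32 (SE, edgeR, p = 0.0615, adjusted p = 1.00), and without control male 37, whose library holds the 48.0 CPM, it was -0.34. Without that library Ifit3 was at -0.24, Oasl2 at -0.33, and the median of the 5 genes then tested was -0.33. Bst2 ran from 4.79 to 23.7 CPM with a median of 14.1 CPM in anti-PAPP-A mice, against 8.66 to 27.9 CPM with a median of 18.4 CPM in control mice, and its log2 fold change was -0.49 ± 0.23 (SE, edgeR quasi-likelihood test, p = 0.0450, adjusted p = 1.00). The arms overlapped for both genes. Ifit3 (-0.57), Oasl2 (-0.52), Ifit1 (-0.30) and Rsad2 (-0.17) had p above 0.05. Macrophage markers had a median of -0.33 with 0 of 9 called, and a mean log2 level of 3.30 to 5.68 in anti-PAPP-A fat against 3.73 to 6.47 in control fat. The usable count ran from 784772 to 2906565 in anti-PAPP-A fat and from 555471 to 2478833 in control fat, with medians of 1030000 and 1536000. The part of macrophages and of depth was not tested.

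The other tissues held smaller medians, namely -0.09 over 7 genes in bone marrow, 0.02 over 7 in gonadal fat, -0.10 over 7 in heart, -0.08 over 6 in kidney and -0.08 over 4 in liver, with no p under 0.05. The median of all genes in these tissues was within 0.01 of 0. Isg15, which was not tested, had medians of 3.95 CPM in gonadal fat of anti-PAPP-A mice and 2.92 CPM in gonadal fat of control mice, and 1.197 CPM in subscapular fat of anti-PAPP-A mice and 3.25 CPM in subscapular fat of control mice, with counts of 17 or fewer per library.

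**Figure D1:**
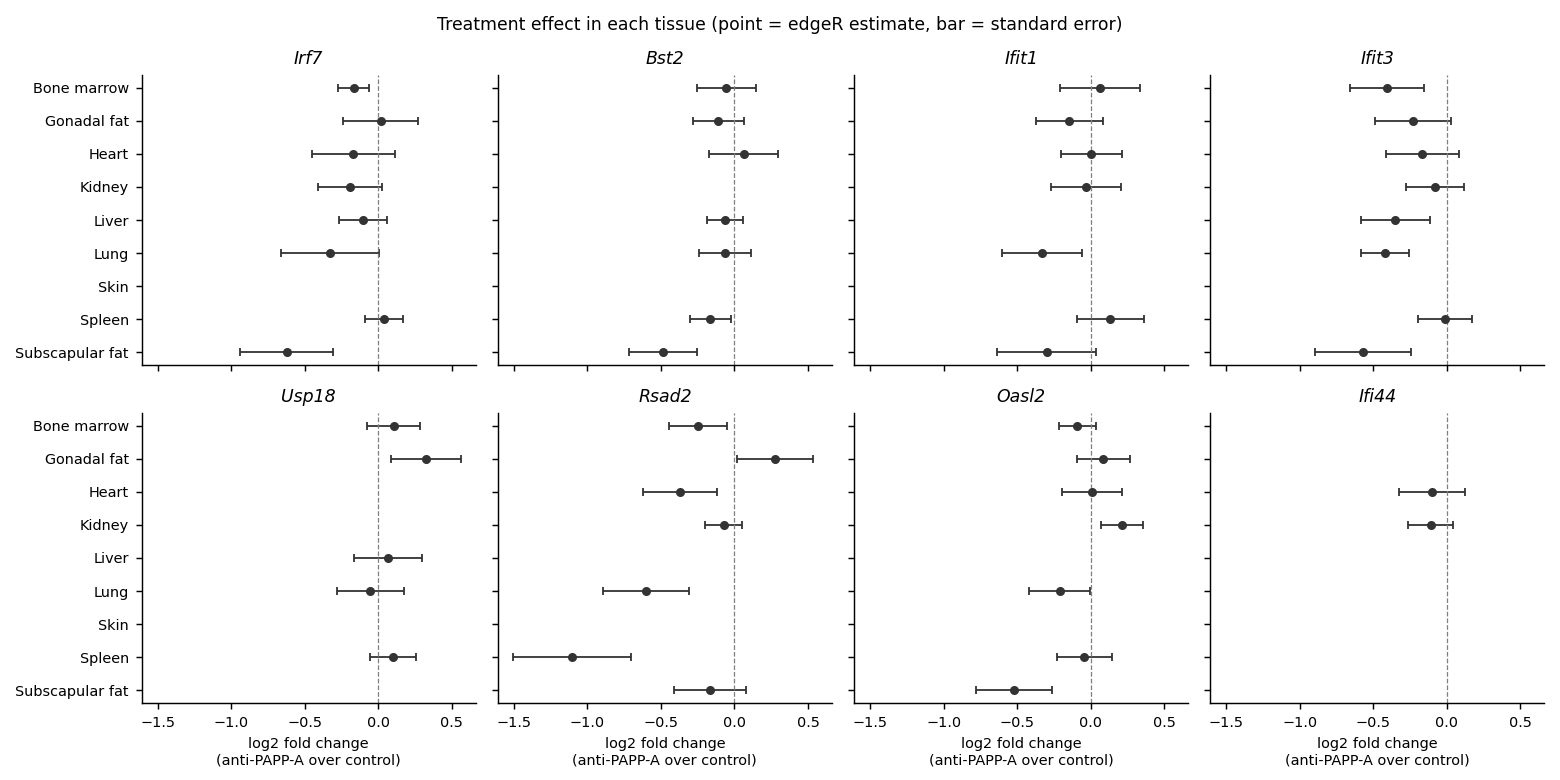
Log2 fold change of each interferon response gene, anti-PAPP-A over control mice, in each tissue in which it passed the filter on low counts, with bars of 1 SE from edgeR. All tested genes lie below 0 in lung (7) and subscapular fat (6), and no value passed an adjusted p of 0.05.

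Averaged over the 9 tissues of a mouse, 6 of the 7 genes with enough counts were lower in anti-PAPP-A mice, but none passed. Of the 10859 genes that passed the filter in 5 or more tissues, 0.00921% (1 gene) were called by limma with Benjamini-Hochberg adjustment, and the median of all of them was -0.04, against -0.14 for the 7. Ifit3 had a log2 difference of -0.22 ± 0.09 (SE, limma, p = 0.0164), Irf7 one of -0.21 ± 0.09 (p = 0.0224) and Oasl2 one of -0.17 ± 0.08 (p = 0.0346), each with an adjusted p of 0.875. Bst2 (-0.14), Rsad2 (-0.14), Ifit1 (-0.12) and Usp18 (0.11) had p above 0.05, and Isg15 and Ifi44 were not tested over the tissues. Whether the treatment difference itself varied between tissues was tested with limma-voom, which called 0 of the 7 genes, beside 0.111% of all genes. Rsad2 (p = 0.00226, adjusted p = 0.211) and Usp18 (p = 0.0458, adjusted p = 0.695) had an unadjusted p under 0.05.

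The wider pathway had no call for treatment either. Of 118 listed genes besides the 9 (ligands, receptors, signal transducers, nucleic acid sensors, and genes stimulated by type I or type II interferon), 728 pairs of gene and tissue were tested by edgeR, 0 were called and 38 had an unadjusted p under 0.05. The share of all genes with such a p ran from 2.37% in subscapular fat to 7.01% in bone marrow. The 11 interferon ligands passed the filter on low counts in no tissue. In subscapular fat 78 of 82 pathway genes had a negative log2 fold change, with a median of -0.26, and 12 had an unadjusted p under 0.05, beside 2.37% of all genes tested there. Without control female 20, a library in doubt with B cell markers at a mean log2 level of 7.79, it was 73 of 82 with 4 under 0.05, and without control male 37 it was 70 of 82 with 8. The smallest p with all libraries belonged to Ube2l6, the conjugating enzyme for Isg15 (-0.57 ± 0.17, SE, edgeR, p = 0.00342, adjusted p = 1.00), and Rtp4, an interferon-induced chaperone (-0.75 ± 0.28, p = 0.0152, adjusted p = 1.00). In lung 70 of 92 were negative, with a median of -0.10, and the smallest p belonged to the nucleic acid-binding proteins Ifi205 (-1.05 ± 0.34, p = 0.00554, adjusted p = 0.712) and Ifi204 (-1.14 ± 0.41, p = 0.01003, adjusted p = 0.712). Over the tissues, limma called 0 of 81 pathway genes, 7 had an unadjusted p under 0.05, and Rtp4 had the smallest (-0.28 ± 0.08, p = 0.00134, adjusted p = 0.875). Of the 6458 genes that passed the filter in every tissue, 245 had an unadjusted p under 0.05.

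Whether the treatment difference depended on sex was tested with edgeR's interaction term, which was called for 0 of the 51 pairs, with 4 at an unadjusted p under 0.05. Of these 4, 2 were in lung, 1 in gonadal fat and 1 in heart, where 7.83%, 2.29% and 5.78% of all genes had it. Of all genes, 0.00835% were called in spleen (1 gene) and 0% in each other tissue. In lung all 7 interaction terms, the effect in females minus that in males, were negative, with a median of -0.70 on the log2 scale against 0.006 over all genes. Ifit3 averaged 33.9 ± 6.6 CPM in lungs of anti-PAPP-A females and 63.9 ± 17.6 CPM in those of control females, but 40.4 ± 6.9 CPM in anti-PAPP-A males and 43.0 ± 9.7 CPM in control males (SD, n = 5 and 6 of each sex). All 5 anti-PAPP-A females lay below all 6 control females, whereas the males overlapped. The interaction term was -0.74 ± 0.29 (SE, edgeR, p = 0.0188, adjusted p = 0.590). Irf7 had the largest term (-1.35 ± 0.62, SE, edgeR, p = 0.0416, adjusted p = 0.6215). Without the lung of control female 11 the term of Ifit3 was -0.59 ± 0.27 (p = 0.0391, adjusted p = 0.637) and that of Irf7 was -0.85 (p = 0.105, edgeR). The median of the 7 terms was then -0.36, and those of Oasl2 (0.01) and Bst2 (0.02) were above 0. Without the lung of control male 68, a library in doubt, the terms of Ifit3 and Irf7 were -0.63 and -1.46. Cardiomyocyte and adipocyte markers had median interaction terms of 3.31 and 3.93 in lung with none called, and their part was not tested. In gonadal fat all 7 terms were positive, with a median of 0.59, and Ifit3 had the smallest p (1.06 ± 0.48, SE, edgeR, p = 0.0365, adjusted p = 1.00). Without anti-PAPP-A female 23, which had the highest Rsad2 there, the median was 0.39, the term of Rsad2 was -0.01 and that of Ifit3 was 0.82 (p = 0.0974), whereas without anti-PAPP-A male 58, a library in doubt, the median was 0.59. Hepatocyte markers had a median term of 2.29 (3 tested, none called), and their part was not tested.

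Between the sexes, 1 of the 51 pairs passed, Rsad2 in gonadal fat, which was higher in females. It ran from 13.3 to 84.2 CPM with a median of 24.8 CPM in females, against 10.0 to 33.4 CPM with a median of 15.2 CPM in males (n = 11 each, both arms). Most females lay above most males, and the ranges overlapped. The log2 fold change of females over males was 0.85 ± 0.26 (SE, edgeR, adjusted p = 0.0290), in a tissue in which 15.1% of all genes were called. The call was lost without male 41, 45, 70 or 71, with adjusted p between 0.0505 and 0.0532, and without anti-PAPP-A female 23, which had the 84.2 CPM, the log2 fold change fell to 0.57 (adjusted p = 0.0495).

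The other 6 genes tested in gonadal fat had the same sign. Usp18 ran from 3.62 to 19.9 CPM with a median of 10.7 CPM in females, against 3.39 to 13.1 CPM with a median of 7.40 CPM in males (0.66 ± 0.24, SE, edgeR, adjusted p = 0.0612). Oasl2 ran from 25.4 to 78.6 CPM with a median of 54.7 CPM in females, against 21.4 to 51.8 CPM with a median of 35.3 CPM in males (0.49 ± 0.18, SE, edgeR, adjusted p = 0.0634). DESeq2 called these genes too, with adjusted p of 0.0451 and 0.0480. Irf7 (0.52), Ifit3 (0.44), Ifit1 (0.39) and Bst2 (0.16) had adjusted p of 0.169 or more. The median of the 7 was 0.49, against 0.01 over all genes.

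**Figure D2:**
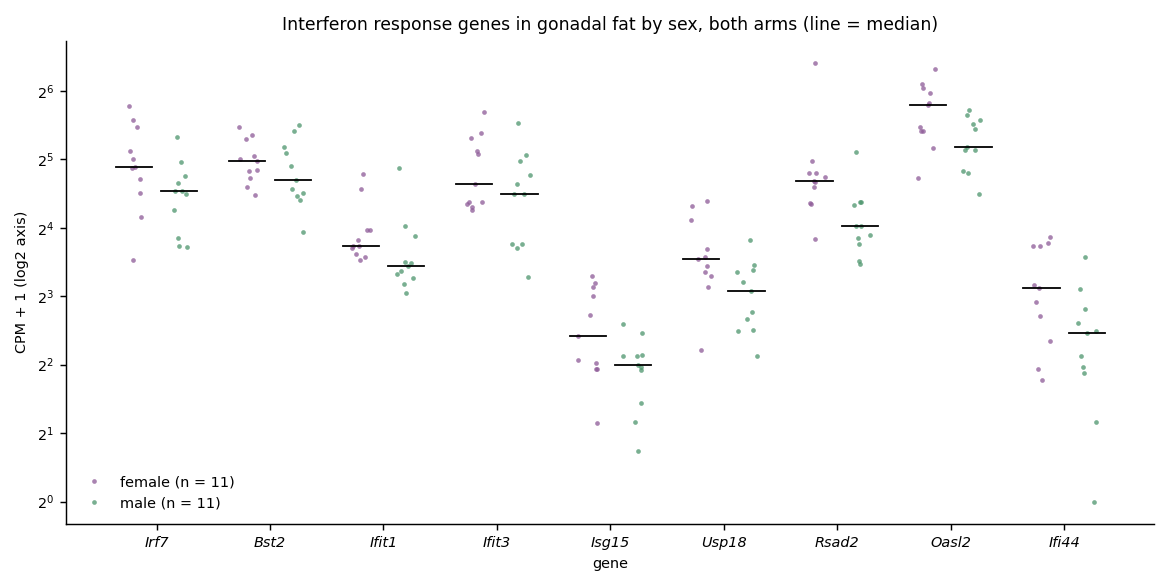
Level of each interferon response gene in gonadal fat, as CPM plus 1 on a log2 axis, by sex over both arms, females left of males, with a point per library and a line at each median. The median of the 11 females lies above that of the 11 males for all 9 genes, and the ranges overlap.

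Cell type markers and other genes of the pathway were called for sex in the same fat. Macrophage markers were lower in females for 7 of 9 tested, with a median log2 fold change of -0.96, and they included Lyz2 (lysozyme, -1.54 ± 0.25), Cd68 (-1.46 ± 0.30), Adgre1 (the F4/80 antigen, -1.30 ± 0.21) and the growth factor receptor Csf1r (-0.61 ± 0.14, SE). Their mean log2 level ran from 5.73 to 7.44 in females and from 6.67 to 8.11 in males. Interferon receptors were lower in females for 5 of 5 tested, among them Ifngr1 (-0.61 ± 0.09, adjusted p = 9.64e-05) and Ifnar2 (-0.43 ± 0.10, adjusted p = 0.00615, edgeR). The interferon regulatory factors Irf5 (-0.88 ± 0.19) and Irf8 (-0.78 ± 0.19), which are abundant in myeloid cells, were lower too. Of the 94 pathway genes tested 2 were higher, the GTPases Tgtp2 (1.26 ± 0.37) and Gbp3 (0.53 ± 0.16), and 13 were lower, a share of 15.96% beside the 15.1% of all genes. Adipocyte markers had 0 of 7 called (median 0.32), and the liver proteins Apoa1 and Ahsg were lower (2 of 3 hepatocyte markers). Whether cell makeup has a part in the level of Rsad2 was not tested.

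In the other tissues no member passed, beside 0.721% of genes called in bone marrow, 0.187% in heart, 26.1% in kidney, 28.4% in liver, 0.140% in lung, 4.53% in spleen and 15.5% in subscapular fat. In marrow, Oasl2 ran from 52.8 to 96.7 CPM with a median of 74.7 CPM in females, against 39.8 to 73.3 CPM with a median of 53.1 CPM in males, with a log2 fold change of 0.42 ± 0.12 (SE, edgeR, p = 0.00250, adjusted p = 0.123). The ranges overlapped. Bst2 in marrow (0.44 ± 0.20, p = 0.0408) and Rsad2 in kidney (-0.27 ± 0.12, p = 0.0391) also had an unadjusted p under 0.05 and did not pass (adjusted p = 0.330 and 0.114, edgeR).

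In marrow 5 of 96 pathway genes tested (5.21%, beside 0.721% of all genes) were higher in females and 0 lower, namely Irf8 (0.44 ± 0.07, adjusted p = 0.00186), the oligoadenylate synthetases Oas1g (1.61 ± 0.32, adjusted p = 0.0129) and Oas2 (0.59 ± 0.13, adjusted p = 0.0220), the class I transactivator Nlrc5 (0.49 ± 0.10, adjusted p = 0.0118) and Gbp4 (0.56 ± 0.11, adjusted p = 0.0120, SE, edgeR). Of 7 plasmacytoid dendritic cell markers tested there, Siglech (0.76 ± 0.15) and Spib (0.53 ± 0.11) were higher and Clec12a (-0.42 ± 0.08) was lower, and 3 of 9 neutrophil markers were lower (S100a8, -0.79 ± 0.16). Their part was not tested. In liver 12 of 67 pathway genes were higher in females and 4 lower (23.9%, beside 28.4% of all genes), with 4 of 8 macrophage markers higher, and none of the 4 members tested there was called.

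In subscapular fat the sex comparison of 3 members rested on 1 library. With all 22 libraries, Irf7 (0.49), Ifit3 (0.46) and Oasl2 (0.37) had adjusted p of 0.288 to 0.338. Without control male 37 their log2 fold changes of females over males were 0.83, 0.87 and 0.61 with adjusted p of 0.0282, 0.0180 and 0.0431 (edgeR), and with 4 calls in gonadal fat the members called came to 7.

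To see whether the response deviates together over the tissues of a mouse, each log2 CPM was set against the mean of its tissue, arm and sex, and the deviations of the 9 genes were averaged in each library. Over all libraries of the 9 tissues, all 36 pairs of genes correlated positively, with a median Pearson r of 0.28, from 0.11 to 0.50 (Ifit1 with Ifit3). The points share library size, scaling and cell makeup. Within a tissue (22 libraries) the median r over the 36 pairs ran from 0.19 in liver to 0.43 in subscapular fat, but the pairs were mixed, with 25 of 36 positive in heart and 35 of 36 in kidney, lung and subscapular fat, and single pairs went down to -0.50 in spleen. In 9 libraries all 9 genes lay above 0 and in 10 all lay at or below 0, while 27 libraries had 4 and 31 had 5 genes above 0.

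Between the tissues of a mouse the relation was weaker. The mean deviation of the 9 genes correlated positively in 28 of 36 pairs of tissues over the 22 mice, with a median r of 0.16, and ran from -0.35 to 0.38 (bone marrow with liver). Deviations in a group of 5 or 6 mice sum to 0, and so these points are not independent. A limma-voom F-test of the 18 mouse terms, after tissue, arm and sex means, called 0 of the 7 genes tested, beside 1.81% of all genes (197 of 10859). Rsad2 had the smallest p (F = 1.82, p = 0.0276, adjusted p = 0.340), Ifit1 the next (F = 1.61, p = 0.0638), and limma-trend called 0 as well. The smallest adjusted p for a member in any alternative was 0.104, for Rsad2 without kidney.

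The intraclass correlation, the share of a gene's deviation that the tissues of a mouse have in common, was 0.083 for Rsad2, 0.075 for Ifit1, 0.052 for Ifit3, 0.037 for Irf7, 0.034 for Usp18, 0.006 for Bst2 and -0.003 for Oasl2. Over 10850 genes its median was 0.012 and the middle 90% lay between -0.044 and 0.090, so all 7 genes lay inside that range, with Rsad2 at percentile 93.6 and Oasl2 at percentile 34.3. Among the 81 pathway genes tested 3 were called for the mouse, beside 1.81% of all genes (197 of 10859). They were Iigp1 (F = 3.00, adjusted p = 0.0115) and Gbp4 (F = 2.78, adjusted p = 0.0258), which are GTPases induced by interferon gamma, and the nucleic acid sensor family member Ifi205 (F = 2.80, adjusted p = 0.0245, limma-voom). Irgm2, Lgals3bp and Tgtp2 came next with adjusted p of 0.0712, 0.133 and 0.136. The intraclass correlation was 0.1655 for Iigp1 and 0.1642 for Gbp4, above the middle 90% of all genes, and 0.065 for Ifi205, within it.

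**Figure D3:**
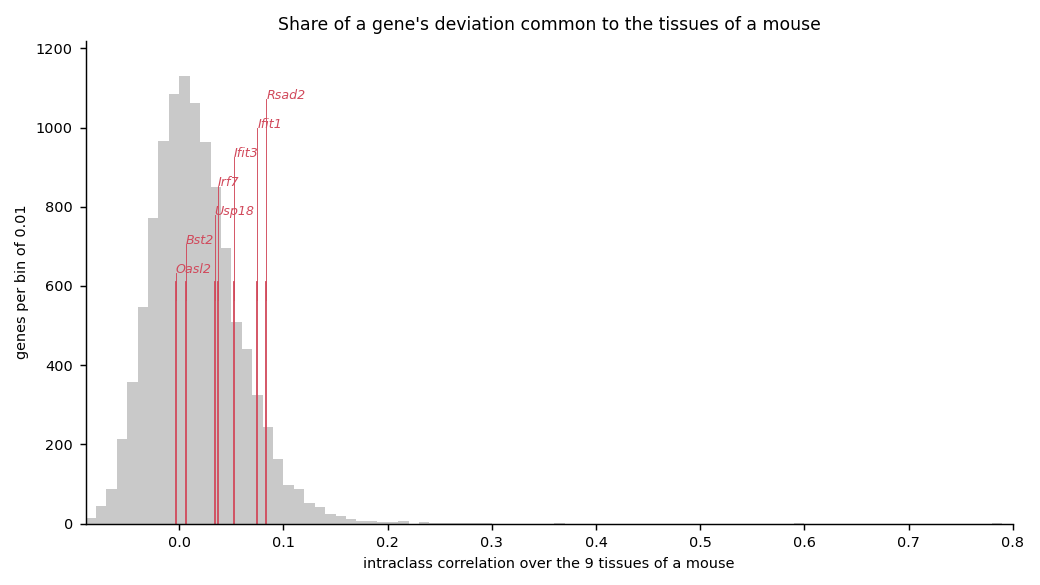
Distribution over 10850 genes of the intraclass correlation of deviations within a mouse, with lines at the 7 interferon response genes that could be tested. The genes lie between -0.003 (Oasl2) and 0.083 (Rsad2), within the middle 90% of all genes.

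A pair of control mice lay on 1 side in nearly all of their tissues. Control female 22 lay above its group's mean in 9 of 9 tissues, with a mean deviation of 0.37 on the log2 scale, from 0.19 in liver to 0.71 in spleen, and 62 of its 81 values were above 0. Isg15 (0.63), Rsad2 (0.60) and Ifi44 (0.47) had the highest mean deviations in this mouse, and Oasl2 (0.06) and Usp18 (0.12) the lowest. Its heart library is in doubt, and without it 8 of 8 tissues lay above. Over its tissues the usable count deviated by -0.46 on the log2 scale, macrophage markers by -0.11 and adipocyte markers by 0.79, and without its heart these were -0.35, -0.11 and 0.25. Their part was not tested. Control female 18 was the reverse, above the mean in 1 of 9 tissues (liver), with a mean deviation of -0.26 and 24 of 81 values above 0, and Rsad2 was below the mean in all of its tissues. Other mice came near to it. Anti-PAPP-A mice 9 and 70 and control mice 11 and 45 were above in 2 of 9 tissues, and control female 20 had a mean deviation of -0.23. Mean deviations ran from -0.19 (female 9) to 0.14 (female 23) among the 10 anti-PAPP-A mice and from -0.26 to 0.37 among the 12 control mice. The difference in spread between the arms was not tested.

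**Figure D4:**
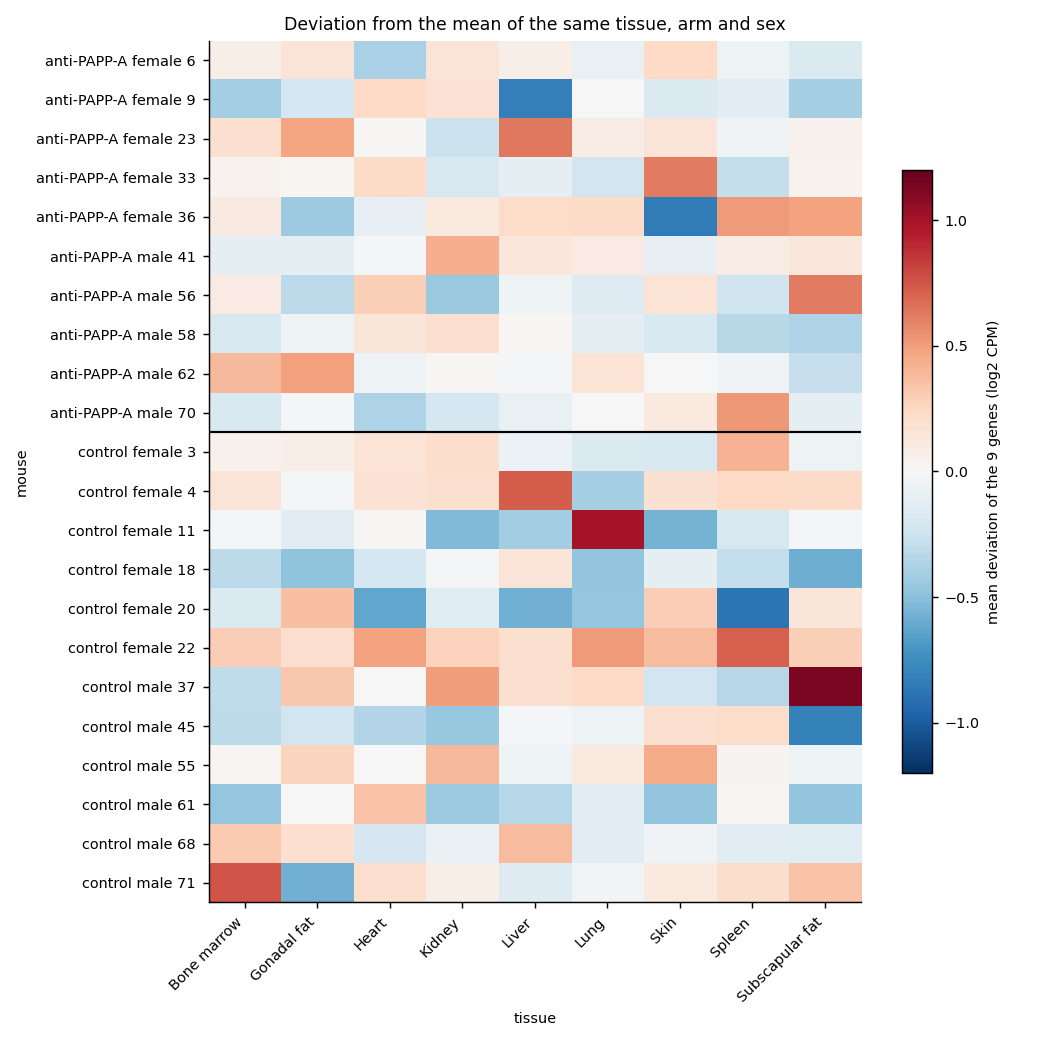
Mean deviation of the 9 interferon response genes (log2 CPM minus the mean of the tissue, arm and sex) for each mouse and tissue, with anti-PAPP-A mice above control mice. Control female 22 is above 0 in all 9 tissues, and control female 18 is above 0 in 1.

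The farthest values belonged to single libraries. Subscapular fat of control male 37 had a mean deviation of 1.13 with 9 of 9 genes above 0, and held 48.0 CPM of Irf7, 52.1 CPM of Ifit3 and 36.5 CPM of Oasl2, against tissue medians of 13.1, 15.3 and 14.2 CPM. The same mouse lay below the mean in marrow, skin and spleen. Macrophage markers in that library were at a mean log2 level of 5.94, against a tissue median of 4.65. Lung of control female 11 had a mean deviation of 1.00 with 9 of 9 genes above 0, and held 94.8 CPM of Ifit3, 84.1 CPM of Oasl2 and 57.4 CPM of Usp18, against tissue medians of 43.8, 32.4 and 20 CPM. Its macrophage markers were at 5.30, against a tissue median of 5.32, and the other tissues of this mouse lay between -0.56 and 0.01. Marrow of control male 71 (0.75) and liver of control female 4 (0.73) were also high. The lowest were spleen of control female 20 (-0.88, with Rsad2 at 0 and 278665 usable counts), skin of anti-PAPP-A female 36 (-0.84, in doubt), liver of anti-PAPP-A female 9 (-0.82) and subscapular fat of control male 45 (-0.81, with 0 of 9 genes above 0).

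Over all libraries the mean deviation of the 9 genes moved with markers of several cell types. Pearson r was 0.39 with macrophage markers, 0.34 with neutrophil markers, 0.33 with endothelial markers, 0.26 with plasmacytoid dendritic cell markers, 0.25 with adipocyte markers, 0.19 with keratinocyte markers, 0.17 with T cell markers, 0.15 with B cell markers, 0.05 with hepatocyte markers, -0.07 with lung epithelium markers, -0.08 with cardiomyocyte markers and -0.11 with kidney tubule markers. With the log2 usable count it was 0.26. Over 6449 other single genes that passed the filter in every tissue, the median r was 0.16 and the 95th percentile 0.31. These are descriptions over libraries that share mice, scaling and depth, and whether cell makeup or depth sets the deviation was not tested.

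Genes whose deviations were most like the mean of the 9 were named by Pearson r over all libraries among 6449 other genes that passed the filter in every tissue, where the median r was 0.16 and the 95th percentile 0.31. Among the first 10 were Rnf213 (0.66), a large ubiquitin ligase, Parp14 (0.58), an ADP-ribosyltransferase, Irf9 (0.53) of the signalling complex, Parp9 (0.49), Tap1 (0.49), a peptide transporter for antigen presentation, B2m (0.48), the class I light chain, the RNA sensor Ifih1 (0.47), the kinase Eif2ak2 (0.47) and Stat2 (0.46). The intraclass correlations of these 9 genes within a mouse lay between -0.040 (Eif2ak2) and 0.038 (Irf9).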

How the data were processed

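Stranded total RNA libraries were made from RNA of whole tissues, per the labels' protocols. The submitters' processing notes name FastQC 0.11.5, Salmon and mm10. The authors deposited whole-number counts per gene, and no source used here says how Salmon's estimates became whole numbers or whether strand was used. Every library was matched to a mouse, a tissue, an arm and a sex by the labels, and the labels' mouse number pairs tissues, not arms.

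The deposited counts were tested in each tissue with the quasi-likelihood F-test of edgeR 4.0.16 under R 4.3.3, after filterByExpr and TMM scaling and with sex and treatment in the fit. P-values were adjusted after Benjamini and Hochberg over all genes tested, with a threshold of 0.05. Over the tissues, limma 3.58.1 tested the mean log2 CPM (prior count 2) of each mouse, and limma-voom tested the tissue by treatment terms, the mouse terms and, in control mice, tissue. Since none of the 9 genes passed the filter in every tissue, the values for treatment, tissue by treatment and the mouse come from genes that passed in 5 or more. The tissue test in control mice took a wider set of 18083 genes, Ifi44 among them. The limma-voom fit of tissue by treatment held the mouse as a random block, and the consensus correlation within a mouse was 0.011. Neighbouring tissues were compared with exact sign-flip permutation tests (scipy 1.17.1). CPM used the count outside 9 features that each took at least 0.9% of counts on average. Tests of a difference between 2 groups or 2 tissues were two-sided, and F-tests of several terms have no direction. The edgeR fit of treatment in 1 tissue was tried on simulated counts. So were the limma fits of treatment, tissue by treatment, mouse and tissue. The interaction term and the permutation tests were not part of that trial.

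Alternatives were DESeq2 1.42.0, no filter on low counts, RLE scaling, no sex term, the abundant features left out, other prior counts, limma-trend, sample quality weights, no libraries in doubt, each mouse or tissue left out, and fits with and without the mouse as a block. The mice of an arm are the replicates, and nothing in the sources says how they were housed or handled.

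The members and gene lists were chosen with earlier results of these data known. Named were the 9 members wherever tested, up to 4 called genes of a list (2 with the smallest p where none was called), the 6 other pathway genes with the smallest p for the mouse and the 10 genes of highest likeness, 1 of which is not reported here. Plasmacytoid dendritic cell, macrophage, neutrophil, T cell, B cell, endothelial, adipocyte, cardiomyocyte, hepatocyte, keratinocyte, kidney tubule and lung epithelium markers were read as lists. Counts measure precision by counting error and the spread between mice only. Annotation came from GENCODE M21 and promoters from RefSeq (GRCm38.p6). Python 3.11.15 with numpy 2.4.6, pandas 2.3.3 and matplotlib 3.10.9 served for tables and figures.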

Additional observations from a re-analysis of the deposited data

Results flagged for a closer look

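In 7 of 81 groups (a gene, a tissue and the anti-PAPP-A arm of 10 mice) a library stood far from the rest by Dixon's test. Chance alone gives about 1 in 20 groups where values are normally distributed. Levels from few counts need not be, and all 7 libraries were the highest of their group. The 7 of 81 is therefore not read as an excess. Control groups of 12 mice were not put to that test, so the 7 do not compare the arms. Anti-PAPP-A female 23 accounts for 4 of the 7. In its gonadal fat Rsad2 was at 84.2 CPM (76 counts), against 12.5 to 24.8 CPM in the other 9 libraries, and Ifit1 was at 26.6 CPM (24 counts), against 7.25 to 14.6 CPM. In its liver Ifi44 was at 17.0 CPM (16 counts), against 0 to 6.43 CPM, and in its kidney Isg15 was at 6.11 CPM (4 counts), against 0 to 3.13 CPM. Over all 9 genes its mean deviation was 0.47 in gonadal fat, 0.64 in liver and -0.26 in kidney.

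The other 3 were Usp18 at 31.1 CPM (110 counts) in heart of anti-PAPP-A male 56, a library in doubt, against 1.41 to 16.3 CPM in the others, Irf7 at 22.3 CPM (15 counts) in skin of anti-PAPP-A female 6, against 0 to 10.98 CPM, and Rsad2 at 6.44 CPM (8 counts) in skin of anti-PAPP-A female 33, against 0 to 3.26 CPM.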

How the results depend on the processing

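No member was called for treatment in a tissue, for treatment over the tissues, for a difference between tissues, for sex by treatment or for the mouse under any alternative run. Of all genes, 2 were called for treatment in the tissues with no low count filter and 2 with DESeq2, against 1, and 1 to 2 without 1 mouse. For sex by treatment 0 to 2 were called without 1 mouse, an alternative chosen after seeing the data, against 1. Over the tissues 0 were called without the libraries in doubt, bone marrow, heart, liver or skin and 2 without subscapular fat, against 1, and 0 to 2 without 1 mouse. A difference between tissues was called for 2 genes without the libraries in doubt, against 12. The mouse was called for 399 genes with quality weights, 45 with limma-trend and 336 without the libraries in doubt, against 197, and for 76 to 327 without 1 mouse. The cause of these shifts was not tested. For sex, DESeq2 called 3 members against 1, and leaving out 1 mouse gave 0 to 7 members and 7778 to 10123 genes. In lung the log2 fold change of Bst2 between the arms ran from -0.14 to 0.02 without 1 mouse (above 0 without female 6, 0.0019, or 11, 0.024) and that of Usp18 from -0.13 to 0.12 (above 0 without female 9, 0.0040, 11, 0.12, or 36, 0.031).

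With the mouse as a replicate block, Ifit3 had -0.27 and Irf7 -0.14 over the tissues (adjusted p = 0.674 and 0.953, limma-voom), and the block changed no call of a member. Without pairing by mouse 18 of the 72 steps between neighbouring tissues had p under 0.05, as with it, and 2 steps changed side. Without TMM scaling, an alternative chosen after seeing the data, there were 39, counted in either direction, and 25 calls changed. Most members had fewer than 100 counts per library, which limits their precision, and Isg15 and all 9 genes in skin were too low to be tested.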
